A study of Apera spica-venti with 32 samples.

Results

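The hormone synthesis and response genes described here are 51 features of the leaf transcriptome of silky windgrass, Apera spica-venti, which grows as a weed in cereals. They were chosen by words in their descriptions, which name an enzyme, receptor, repressor or responsive protein of jasmonate, ethylene, auxin, abscisic acid, gibberellin, cytokinin or brassinosteroid. Only features that the authors had listed as changed in at least 1 of 4 class comparisons carried a description, 7967 of 39590 features, so each member was chosen partly by its measured values. The 51 features lay on 51 contigs: 12 belonged to jasmonate, 12 to ethylene, 19 to auxin, 5 to gibberellin and 1 to abscisic acid. No description named cytokinin or brassinosteroid. Another 2 members matched by a stretch of letters alone, a 2-methylene-furan-3-one reductase and a homolog of the protein KIAA1468, and are not counted under any hormone. In the authors' deposited table, 25 members were listed in 1 comparison, 22 in 2 and 4 in 3. The member closest to the authors' threshold was the ETHYLENE-INSENSITIVE 2-like feature, whose smallest adjusted p in the authors' deposited table was 0.0481, and unlisted features have no description by which to find those just outside.

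Leaves came from 4 populations, S1 and S2 susceptible and R1 and R2 resistant to several herbicides. Plants were grown at 21 °C to BBCH stage 12 to 13 (seedlings with their first leaves) and were either left untreated or sprayed once with pinoxaden at 45 g of active ingredient per hectare. Pinoxaden inhibits acetyl-CoA carboxylase, the first enzyme of fatty acid synthesis, and leaves were harvested 8 h after the spray. Each of the 8 groups had 4 replicates of 3 pooled plants, 32 libraries in all, and nothing in the labels mentions a spray without herbicide. Each class rests on 2 populations, so a class difference is a difference between these 4 populations. The genetic basis of the resistance is not given in the sources used here.

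Jasmonate, ethylene and abscisic acid are made or released within hours when a leaf is wounded, attacked or dried, whereas auxin and gibberellin set the pace of cell expansion. The jasmonate and auxin pathways end in transcription factors held in check by repressors, the TIFY (JAZ) proteins for jasmonate and the Aux/IAA proteins for auxin. A hormone that removes its repressors commonly also raises their messages again, so that repressor genes are among the early responsive genes of their own pathway.

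Library totals ran from 26213780 to 46062806 counts, and the 10 most abundant features held 60.5 to 69.6% of them. The 51 members together held 0.0411 to 0.0647% of the counts. The leaf label fitted the data, since 43 photosynthesis features took 59.1 to 68.2% of the counts in every library and none was at 0. Untreated R1 replicate 1 stood apart, with the lowest top-10 share of 60.5% and the highest values of some members named below. Levels are CPM, the count of a feature over the library total scaled by TMM factors; feature lengths are not known, so levels are compared between libraries and not between genes. Bulk leaf RNA cannot tell fewer cells of a type from less RNA per cell.

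All 51 members passed the filter on low counts, although 12 averaged below 1 CPM and 6 had a library at 0. Over the susceptible plants 41 of the 51 members were called between sprayed and untreated leaves, 24 higher and 17 lower, where 25.4% of the 25036 tested features were called, 13.5% higher and 11.8% lower. Over the resistant plants 22 were called, 13 higher and 9 lower, beside 9.14% of all features, 5.63% higher and 3.51% lower. Since these contrasts chose the members, the counts are a description and nothing is read from them; "called" means an adjusted p below 0.05 in edgeR's quasi-likelihood test. With library totals alone as the scale, the susceptible counts became 27 higher and 4 lower, with the median of all features moved by 0.30 on the log2 scale, and the resistant counts became 12 and 7. Side by side, 18 members were called with the same sign in both classes, 23 only in the susceptible and 4 only in the resistant, and for 2 members the difference between the class responses was itself called, beside 0.563% of all features. All 8 sprayed libraries lay above the 8 untreated ones for 8 members in the susceptible class, as for 3.61% of all features, and below them for 4, as for 1.64%. In the resistant class 5 members lay wholly above, as did 1.2% of all features, and 0 wholly below, as did 0.328%.

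In the plot of responses by population, 22 members were higher after the spray in all 4 populations, 15 were lower in all 4 and 14 were mixed. Among jasmonate members 7 were higher in all 4 and none was lower in all 4. Among ethylene members 8 were higher and 2 lower, and among auxin members 5 were higher and 11 lower. The choice of members favours an equal sign in the populations of a class, so these counts describe the list and do not test it.

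**Figure D1:**
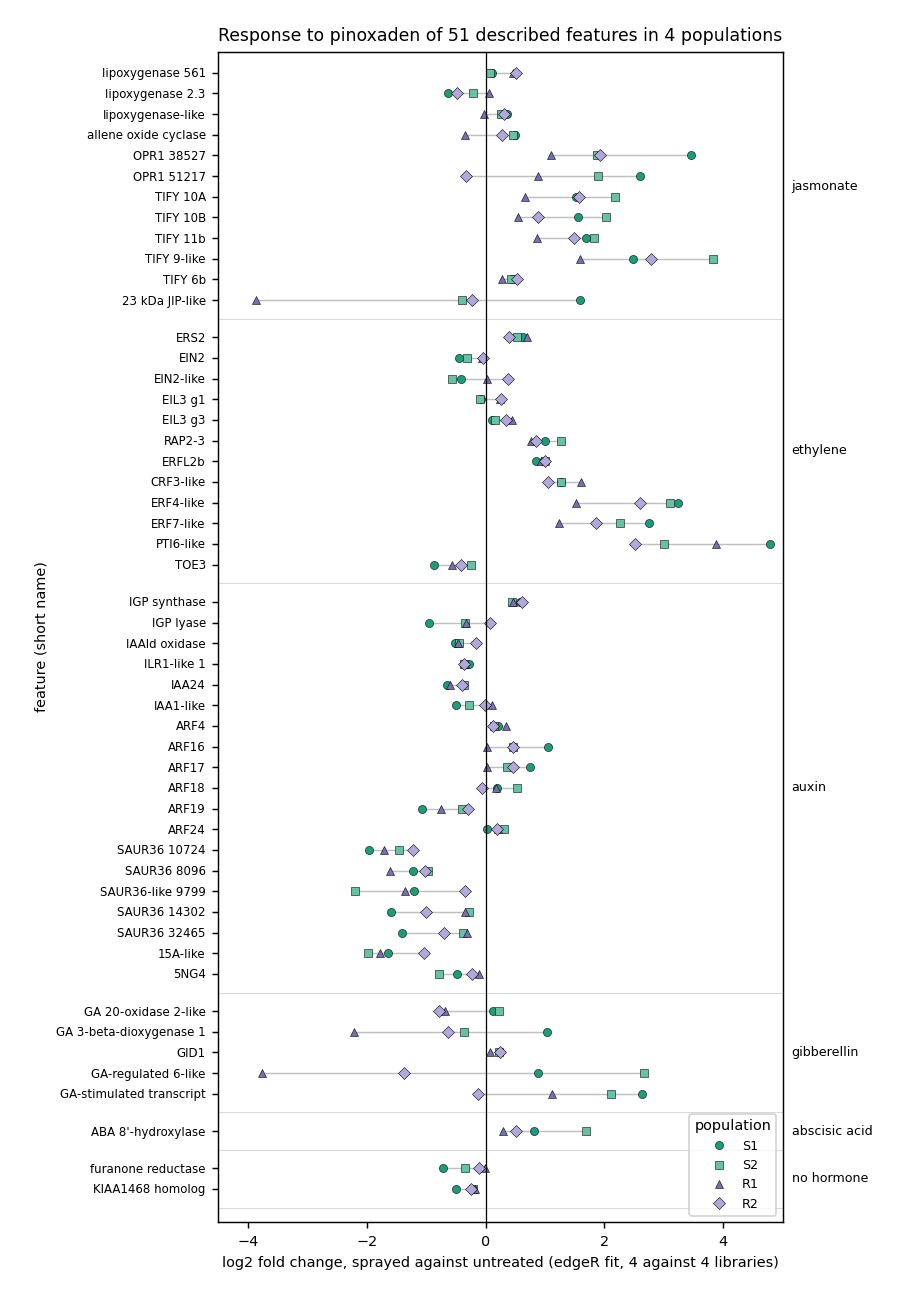
Log2 fold change of sprayed against untreated leaves for each of the 51 members in populations S1, S2, R1 and R2 (x axis; 4 against 4 libraries each), grouped by hormone, with a grey line from the lowest to the highest population. The TIFY repressors and most ethylene response factors lie to the right of 0 in all 4 populations, and the SAUR genes to the left.

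Jasmonate is made from linolenic acid in the plastid by lipoxygenase and allene oxide cyclase, and its precursor is then reduced by an oxophytodienoate reductase. The synthesis members did not share a direction. The chloroplast allene oxide cyclase (TRINITY_DN18976_c0_g1_i2.p1) had a median of 2.23 CPM in untreated and 3.14 CPM in sprayed susceptible leaves, a log2 fold change of 0.47 ± 0.17 (SE, n = 8 against 8 libraries), and −0.03 ± 0.17 in the resistant. Lipoxygenase 2.3 (TRINITY_DN1387_c0_g1_i3.p2) was lower after the spray in the susceptible class, from a median of 25.2 to 18.4 CPM (log2 −0.43 ± 0.14), and the lipoxygenase-like protein (TRINITY_DN8478_c0_g1_i15.p1) was higher, from 8.40 to 10.7 CPM (0.30 ± 0.09). Neither was called in the resistant class, where they stood at −0.21 ± 0.14 and 0.14 ± 0.09. The lower susceptible value of lipoxygenase 2.3 was not called on library totals alone. The other lipoxygenase (TRINITY_DN561_c0_g1_i1.p1) was called in neither response and is described with the untreated classes.

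The 2 members described as 12-oxophytodienoate reductase 1 were higher after the spray in susceptible leaves. In Arabidopsis the jasmonate step is carried by another member of this family, OPR3, so the name alone does not place these features in jasmonate synthesis. The first (TRINITY_DN38527_c0_g1_i1.p1) ran from 0.101 to 0.404 CPM with a median of 0.201 in untreated susceptible libraries and from 0.136 to 3.06 CPM with a median of 1.14 in sprayed ones. That made a log2 fold change of 2.66 ± 0.67, against 1.51 ± 0.52, not called, in the resistant class. The second (TRINITY_DN51217_c0_g1_i1.p2) was near the detection limit, with 15 counts in all over the 8 untreated susceptible libraries and 86 over the sprayed ones (2.25 ± 0.65), and with 80 and 123 counts in the resistant class (0.28 ± 0.58).

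The 5 TIFY repressors had higher fitted values after the spray in each of the 4 populations. All 5 were called higher in the susceptible class, beside 13.5% of all features. All but TIFY 10B were called higher in the resistant class, beside 5.63%. A TIFY feature with no listed change would carry no description, so these counts describe the list and do not test it. TIFY 10A (TRINITY_DN6866_c0_g1_i1.p1) ran from 0.659 to 1.64 CPM, median 1.03, in untreated susceptible libraries and from 3.05 to 4.87 CPM, median 3.67, in sprayed ones, without overlap. In resistant leaves it ran from 0.554 to 1.54 CPM, median 0.901, untreated and from 0.679 to 3.26 CPM, median 1.89, sprayed, and these groups overlapped. The log2 fold changes were 1.85 ± 0.22 and 1.12 ± 0.22.

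TIFY 11b (TRINITY_DN1298_c0_g1_i8.p2) showed the same layout. Its untreated susceptible libraries ran from 1.02 to 3.06 CPM with a median of 1.68 and its sprayed ones from 4.89 to 7.96 CPM with a median of 6.47. Resistant libraries went from a median of 1.59 CPM to one of 3.58 CPM, with log2 fold changes of 1.76 ± 0.19 in the susceptible and 1.18 ± 0.19 in the resistant class. TIFY 6b (TRINITY_DN542_c0_g1_i23.p1) moved least, by 0.43 ± 0.09 and 0.40 ± 0.09, from medians of 38.8 and 36.4 CPM to 52.4 and 46.8 CPM.

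TIFY 9-like (TRINITY_DN90494_c0_g1_i4.p1) was almost silent before the spray. Its 8 untreated susceptible libraries held 26 counts in all and 2 of them none, and its 8 untreated resistant libraries held 10 counts and 5 of them none. After the spray there were 209 counts in susceptible and 51 in resistant libraries, none of them at 0, and the fitted log2 fold changes were 3.15 ± 0.65 and 2.18 ± 0.70. The resistant call was lost in 14 of 23 alternative fits, 13 of which left out 1 library; without untreated R1 replicate 1 the value was 1.97 ± 0.70. TIFY 10B (TRINITY_DN69374_c0_g1_i1.p1) gave 1.80 ± 0.45 in the susceptible class and 0.72 ± 0.46, not called, in the resistant.

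In sprayed leaves all 5 repressors had lower fitted values in the resistant than in the susceptible class, and 2 were called. The log2 difference of resistant against susceptible was −0.94 ± 0.21 for TIFY 10A and −0.84 ± 0.19 for TIFY 11b, both called. TIFY 9-like at −1.996 ± 0.597, TIFY 10B at −1.29 ± 0.44 and TIFY 6b at −0.11 ± 0.09 were not called, although the authors' deposited table lists TIFY 9-like (TRINITY_DN90494_c0_g1_i4.p1) there at −2.01 with an adjusted p of 0.00479. In sprayed leaves 6 of the 51 members were called between the classes, 3 higher and 3 lower, beside 2.3% of all features, 1.55% higher and 0.751% lower. With library totals alone that split was 1 higher and 3 lower. The difference between the class responses was −0.73 ± 0.31 for TIFY 10A and −0.58 ± 0.27 for TIFY 11b and was called for neither. R1 was the lower of the resistant populations for both genes, at 1.46 ± 0.60 CPM (SD, n = 4) against 2.59 ± 0.92 in R2 for TIFY 10A and 2.79 ± 0.83 against 4.59 ± 0.83 for TIFY 11b. Those population differences were not called, with adjusted p = 0.298 and 0.292 in edgeR's quasi-likelihood test with Benjamini-Hochberg adjustment.

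**Figure D2:**
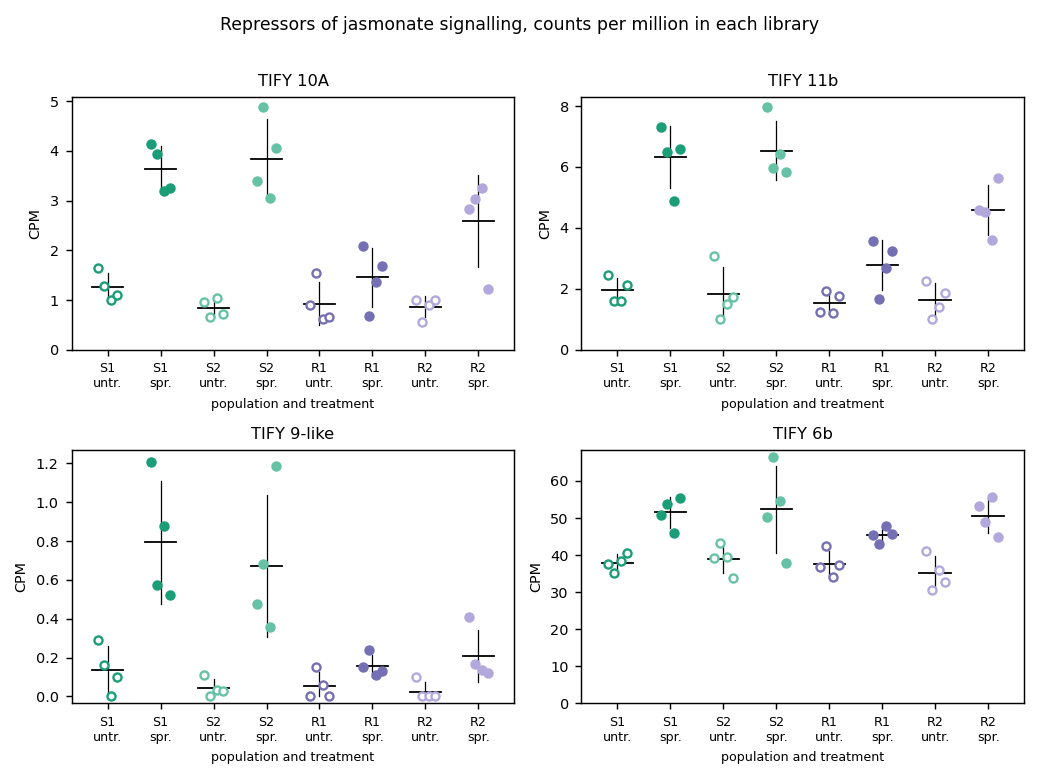
CPM of 4 TIFY repressors in each of the 32 libraries (y axis) by population and treatment (x axis; open circles untreated, filled circles sprayed; horizontal line mean, vertical line SD, n = 4). Sprayed susceptible libraries of TIFY 10A start at 3.05 CPM, above the highest untreated one at 1.64 CPM, while sprayed R1 reaches down into the untreated range.

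The only member named as a jasmonate target, the 23 kDa jasmonate-induced protein-like feature (TRINITY_DN10296_c0_g1_i2.p1), did not follow the repressors. In resistant leaves it went from a median of 1.83 CPM, with a range of 1.00 to 21.7, to a median of 0.589 CPM, with a range of 0.365 to 3.05, a log2 fold change of −2.05 ± 0.61. In susceptible leaves it stood at 0.60 ± 0.59. The highest value came from untreated R1 replicate 1, and without that library the resistant value was −1.23 ± 0.53 and was no longer called.

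Ethylene is sensed by membrane receptors that keep EIN2 inactive until the gas binds; EIN2 then activates EIN3-like transcription factors, which switch on genes of the ethylene response factor (ERF) family. Of the 12 ethylene members 7 were called higher in each class, beside 13.5% of all features in the susceptible and 5.63% in the resistant. Since these contrasts chose the members, the counts are a description. The enzymes that make ethylene carry no hormone word in their names and were found by the pathway list. The synthase of its precursor (TRINITY_DN126713_c0_g1_i1.p1) was called higher in both classes, 2.85 ± 0.59 and 1.89 ± 0.58, from a median of 0.0534 to 0.327 CPM in susceptible and of 0.0598 to 0.227 CPM in resistant leaves. With a mean of 0.18 CPM over all libraries, it was near the detection limit. The oxidase of the last step (TRINITY_DN3536_c0_g1_i9.p1) gave 0.30 ± 0.16, not called, and 0.52 ± 0.16, called.

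The PTI6-like factor (TRINITY_DN108435_c0_g1_i14.p1) had the largest response of the list in both classes. PTI6 was found in tomato as a partner of the resistance kinase Pto and binds promoters of pathogenesis-related genes. Untreated, the 16 libraries of the classes lay between 0.388 and 0.865 CPM. Sprayed S1 replicates 1 to 4 held 18.9, 18.3, 22.3 and 9.61 CPM, and sprayed S2 replicates held 3.54, 7.82, 3.41 and 7.68 CPM. Sprayed R1 replicates held 10.3, 10.1, 8.01 and 11.04 CPM, and sprayed R2 replicates held 4.65, 2.20, 0.977 and 4.82 CPM. Every sprayed library was above every untreated one, and within each class the population named 1 lay wholly above the population named 2. The class responses were 3.90 ± 0.28 in the susceptible and 3.20 ± 0.28 in the resistant plants on the log2 scale.

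The populations of a class were not compared by the rule that chose the members, so the difference between them was tested. PTI6-like was lower in sprayed S2 than in sprayed S1 by a log2 value of −1.62 ± 0.34 (adjusted p = 0.0176, edgeR's quasi-likelihood test with Benjamini-Hochberg adjustment over all 25036 features). It was lower in sprayed R2 than in sprayed R1 by −1.64 ± 0.35 (adjusted p = 0.0261, same edgeR test). PTI6-like was the 1 member called in either comparison, where 1.34% and 0.407% of all features were called. In untreated leaves the differences were 0.17 ± 0.42 and −0.27 ± 0.42, called in neither class. The responses themselves differed by −1.79 ± 0.54 between S2 and S1 and by −1.37 ± 0.55 between R2 and R1, and neither passed the test (adjusted p = 0.322 and 0.793, edgeR). Sprayed libraries also differed as a whole on the first principal component, the axis of largest spread over all tested features (15.5% of it). Untreated libraries lay at −55.81 to −14.06, sprayed S1 at 49.86 to 85.03 and sprayed S2 at 17.13 to 55.44. Sprayed R1 lay at 47.68 to 53.66 and sprayed R2 at −6.506 to 36. How far PTI6-like follows this wider difference was not tested.

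The 2 calls were lost in some alternative fits. With only the 8 libraries of each comparison in the fit, PTI6-like stood at −1.63 ± 0.36 for S2 against S1 (adjusted p = 0.0876, edgeR) and −1.65 ± 0.44 for R2 against R1 (adjusted p = 0.188, edgeR), neither called. Leaving out 1 library at a time gave −1.45 to −1.83 for S2 against S1, with the call lost without sprayed S1 replicate 2 or 3 or sprayed S2 replicate 1 or 3. For R2 against R1 it gave −1.35 to −1.92, with the call lost without sprayed R1 replicate 1, 2 or 4 or sprayed R2 replicate 2 or 3.

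Other ERF members were higher after the spray at similar sizes in both classes. RAP2-3 (TRINITY_DN2152_c0_g1_i2.p1), a factor of the low-oxygen response in Arabidopsis, ran from 4.87 to 11.1 CPM over the 16 untreated libraries and from 11.2 to 24.6 CPM over the 16 sprayed ones. It and PTI6-like were the 2 members whose 16 sprayed libraries all exceeded the 16 untreated ones, as 0.587% of all features did. Its class responses were 1.13 ± 0.16 and 0.80 ± 0.16. ERFL2b (TRINITY_DN2240_c0_g1_i1.p1) showed 0.92 ± 0.18 in the susceptible and 0.97 ± 0.18 in the resistant class, and CRF3-like (TRINITY_DN326_c0_g2_i3.p1), named after the cytokinin response factors, 1.27 ± 0.26 and 1.33 ± 0.27.

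The features like ERF4 and ERF7, which are repressors of transcription in Arabidopsis, were barely detected before the spray. The ERF4-like feature (TRINITY_DN3577_c3_g1_i1.p2) held 19 counts over the 8 untreated susceptible libraries and 191 over the sprayed ones, and 17 and 91 in the resistant class. Its fitted log2 fold changes were 3.17 ± 0.61 and 2.06 ± 0.62. The ERF7-like feature (TRINITY_DN21823_c0_g2_i1.p3) held 14 and 83 counts in the susceptible class (2.50 ± 0.57) and 13 and 41 in the resistant (1.55 ± 0.58, not called).

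**Figure D3:**
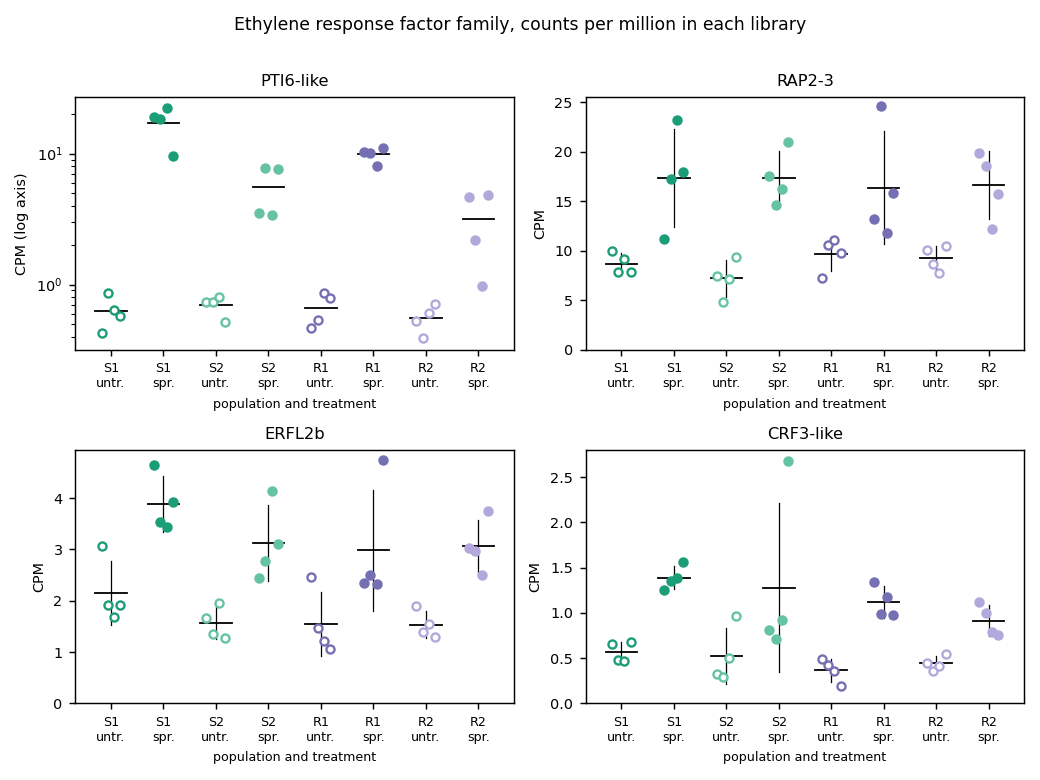
CPM of 4 ERF family members in each of the 32 libraries (y axis; logarithmic for PTI6-like) by population and treatment (x axis; open circles untreated, filled circles sprayed; horizontal line mean; vertical line SD, n = 4, on the linear panels). PTI6-like lies between 0.388 and 0.865 CPM before the spray and is lower in sprayed S2 and R2 than in sprayed S1 and R1.

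Receptors and EIN2 act before the ERF layer. The receptor feature ethylene response sensor 2 (TRINITY_DN6331_c0_g1_i11.p1) ran from 6.89 to 9.55 CPM in untreated and from 11.2 to 13.9 CPM in sprayed susceptible libraries, and from 6.31 to 9.23 and from 9.51 to 12.9 CPM in resistant ones, without overlap in either class. Its responses were 0.57 ± 0.09 and 0.54 ± 0.09. EIN2 (TRINITY_DN8003_c0_g1_i13.p1) was lower in the susceptible class, −0.38 ± 0.07, and stood at −0.05 ± 0.07 in the resistant; EIN2-like (TRINITY_DN8003_c0_g2_i2.p1), from the same Trinity cluster, gave −0.49 ± 0.17 and 0.20 ± 0.17. On library totals alone neither susceptible value was called.

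The pair of ETHYLENE INSENSITIVE 3-like 3 features also shared a Trinity cluster, so reads could be split between them. One (TRINITY_DN14142_c0_g3_i2.p1) was higher in sprayed resistant than in untreated resistant leaves (0.39 ± 0.10) and than in sprayed susceptible leaves (0.41 ± 0.10). The 8 sprayed resistant libraries, at 9.70 to 12.2 CPM, lay above the 8 sprayed susceptible ones, at 6.60 to 9.51 CPM, the 1 member laid out so, as 0.108% of all features were. The other (TRINITY_DN14142_c0_g1_i1.p1) was lower in untreated resistant than in untreated susceptible leaves, −0.28 ± 0.08, a call lost in 18 of 25 alternative fits, 14 of which left out 1 library. TOE3 (TRINITY_DN3678_c0_g1_i28.p1), an AP2-type repressor of flowering in Arabidopsis, was lower after the spray in the susceptible class, −0.56 ± 0.19, and gave −0.50 ± 0.19, not called, in the resistant. Its susceptible value was not called on library totals alone.

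Auxin members went in both directions. SAUR genes are short messages that rise within minutes of auxin and whose proteins promote cell expansion, and in Arabidopsis SAUR36 is also linked to leaf ageing. All 6 SAUR-type members had lower fitted values after the spray in each of the 4 populations. Of these, 5 were called lower in the susceptible class and 3 in the resistant, beside 11.8% and 3.51% of all features. The same contrasts chose the members, so these counts are a description. The 15A-like feature (TRINITY_DN13607_c0_g1_i1.p3) ran from 0.980 to 2.64 CPM, median 1.68, in untreated and from 0.0889 to 0.677 CPM, median 0.528, in sprayed susceptible libraries. In resistant libraries it ran from 1.00 to 2.27 CPM, median 1.84, and from 0.148 to 1.33 CPM, median 0.609. The susceptible groups did not overlap and the resistant groups did, with log2 fold changes of −1.81 ± 0.32 and −1.41 ± 0.31.

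The SAUR36 features had lower medians after the spray in both classes. The first (TRINITY_DN8096_c1_g1_i1.p1) went from a median of 2.13 CPM to 0.969 CPM in the susceptible class and from 3.40 to 1.31 CPM in the resistant, log2 −1.09 ± 0.28 and −1.31 ± 0.28. The second (TRINITY_DN10724_c0_g1_i1.p1) gave −1.71 ± 0.36 and −1.47 ± 0.34 from 178 and 249 counts over the untreated libraries of each class. SAUR36-like (TRINITY_DN9799_c0_g1_i1.p1) was called in the susceptible class only, −1.70 ± 0.32 against −0.85 ± 0.31, and the difference between those responses, 0.85 ± 0.44, was not called. The remaining 2 SAUR36 features gave −0.94 ± 0.38, not called, and −0.89 ± 0.28 in the susceptible class. Near-identical copies in this family could share reads, which the files do not let one check.

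**Figure D4:**
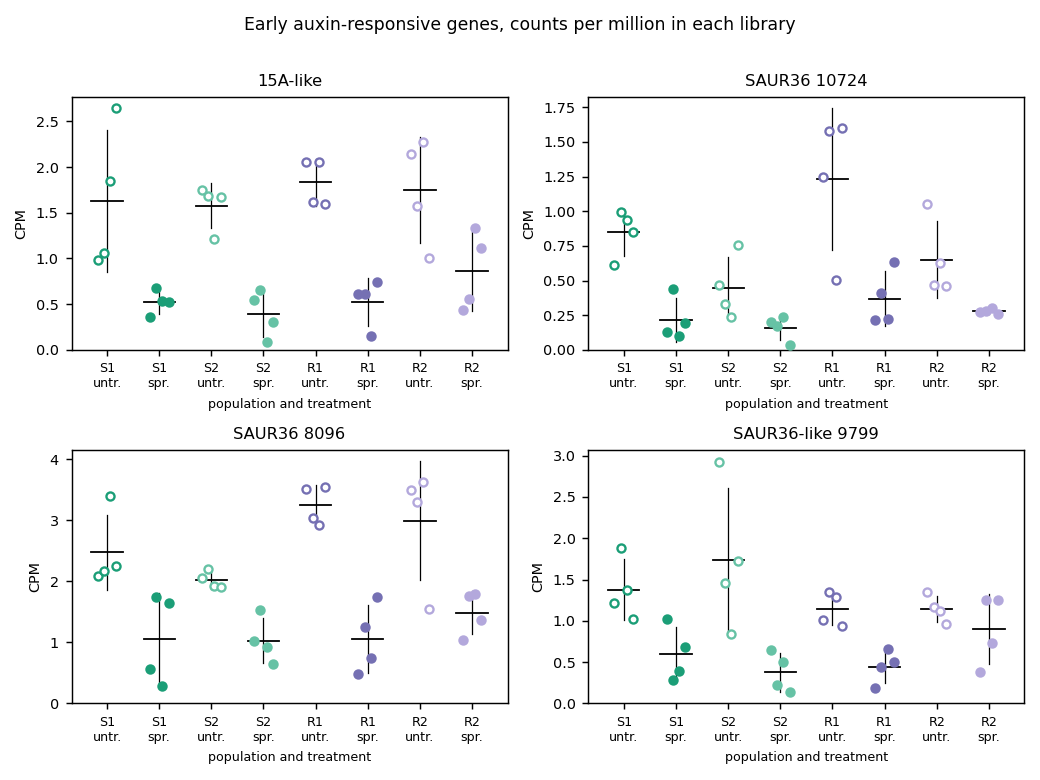
CPM of 4 SAUR-type members in each of the 32 libraries (y axis) by population and treatment (x axis; open circles untreated, filled circles sprayed; horizontal line mean, vertical line SD, n = 4). In the 15A-like panel the sprayed susceptible libraries end at 0.677 CPM, below the lowest untreated one at 0.980 CPM.

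Other auxin members moved less. The repressor IAA24 (TRINITY_DN6413_c0_g1_i7.p1) was lower in both classes, −0.51 ± 0.13 and −0.50 ± 0.13. An indole-3-acetaldehyde oxidase-like feature (TRINITY_DN11695_c0_g1_i1.p2), named for the last step of one route to auxin, gave −0.48 ± 0.10 and −0.31 ± 0.10. An ILR1-like hydrolase (TRINITY_DN4425_c0_g1_i1.p2), of the kind that frees auxin from amino acid conjugates, gave −0.32 ± 0.11 and −0.36 ± 0.11. In each class all 3 of these features were called. On library totals alone 7 of the 11 lower auxin members were no longer called in the susceptible class, and the 15A-like feature, SAUR36 TRINITY_DN10724_c0_g1_i1.p1, SAUR36-like and 5NG4 were.

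The auxin response factors, which bind the promoters of auxin-responsive genes, were mostly higher. ARF4 (0.18 ± 0.07 and 0.24 ± 0.07) and ARF24 (0.16 ± 0.06 and 0.20 ± 0.06) were called in both classes. ARF16 (0.76 ± 0.16), ARF17 (0.56 ± 0.14) and ARF18 (0.36 ± 0.11) were called in the susceptible class, and ARF19 was lower there, −0.74 ± 0.27. ARF18 was also lower in sprayed resistant than in sprayed susceptible leaves, −0.50 ± 0.11. Of the 2 enzymes of indole-3-glycerol phosphate, the synthase of the tryptophan pathway (TRINITY_DN28781_c0_g1_i2.p1) stood at 0.51 ± 0.19 and 0.53 ± 0.19 and was called in neither class, and the lyase that releases indole was lower in the susceptible class, −0.66 ± 0.20. Auxin-induced protein 5NG4, first described in pine, was lower there too, −0.63 ± 0.11.

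Gibberellin is made active by a 20-oxidase followed by a 3-beta-dioxygenase, is bound by the receptor GID1, and acts in part through small secreted proteins. The synthesis members had lower medians in sprayed than in untreated resistant leaves. Gibberellin 20 oxidase 2-like (TRINITY_DN9151_c0_g1_i2.p1) ran from 1.58 to 3.24 CPM, median 1.97, in untreated and from 0.760 to 1.93 CPM, median 1.23, in sprayed resistant libraries, a log2 fold change of −0.73 ± 0.17. In the susceptible class it stood at 0.17 ± 0.17, and the difference between the responses, −0.91 ± 0.24, was not called. Gibberellin 3-beta-dioxygenase 1 (TRINITY_DN5194_c0_g1_i4.p1) gave −1.42 ± 0.56 and 0.34 ± 0.57, called in neither. GID1 was higher in the susceptible class by 0.23 ± 0.08.

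Gibberellin-regulated protein 6-like (TRINITY_DN117207_c0_g1_i2.p1) had fitted responses of opposite sign in the classes, at very low levels, and only the resistant one was called. Untreated resistant libraries ran from 0.269 to 1.56 CPM with a median of 0.517 and held 184 counts in all; sprayed ones ran from 0 to 0.298 CPM with a median of 0.110 and held 34 counts. Untreated and sprayed susceptible libraries held 21 and 52 counts, with 2 libraries at 0 in each. Untreated S2 held 2 counts in all, and 1 sprayed susceptible library held 21 of the 52. The fitted log2 responses were −2.58 ± 0.66 in the resistant and 1.77 ± 0.75 (not called) in the susceptible class, and the difference between them, −4.35 ± 1.00, was called. That call was lost in 20 of 40 alternative fits, 18 of which left out 1 library; without untreated R1 replicate 1 the difference was −4.14 ± 1.03, and with a replicate block it was not called either. A gibberellin-stimulated transcript (TRINITY_DN19565_c0_g1_i1.p2) was called higher in the susceptible class, 2.37 ± 0.65, from 18 counts over the untreated libraries and 105 over the sprayed ones.

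Abscisic acid had a single member, an 8'-hydroxylase (TRINITY_DN10925_c0_g2_i2.p2) of the kind that starts the breakdown of the hormone. It ran from 0.0748 to 0.371 CPM, median 0.196, in untreated and from 0.170 to 0.981 CPM, median 0.487, in sprayed susceptible libraries (1.25 ± 0.43), and gave 0.40 ± 0.44 in the resistant class. Of the members tied to no hormone, the furanone reductase (TRINITY_DN603_c0_g1_i9.p1) was lower after the spray in susceptible leaves, from a median of 207 to 139 CPM (−0.53 ± 0.08), and stood at −0.06 ± 0.08 in resistant ones. Its responses differed by 0.47 ± 0.11, which was called. That call was lost in 27 of 41 alternative fits, 24 of which left out 1 library; without untreated R1 replicate 1 the difference was 0.43 ± 0.11, and it was not called on library totals alone or with a replicate block. The KIAA1468 homolog was lower in the susceptible class, −0.36 ± 0.10. Neither its susceptible response nor that of the furanone reductase was called on library totals alone.

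Before any spray, 6 of the 51 members were called between the classes, 4 higher and 2 lower in resistant leaves, beside 4.12% of all features, 2.76% higher and 1.36% lower. The groups did not overlap for 2 of the higher ones and 1 of the lower ones, as for 0.328% and 0.152% of all features. On library totals alone the counts were 7 and 1, with the median of all features moved by 0.21. The 12-oxophytodienoate reductase 1 feature TRINITY_DN38527_c0_g1_i1.p1 had the largest value. Its untreated resistant libraries ran from 0.675 to 7.96 CPM with a median of 2.68, all above the untreated susceptible ones, which ended at 0.404 CPM. The log2 difference was 3.88 ± 0.66 untreated and 2.73 ± 0.55 sprayed. The other feature of that name, TRINITY_DN51217_c0_g1_i1.p2, differed by 2.26 ± 0.65 untreated and by 0.29 ± 0.58, not called, sprayed. The untreated call was lost in 13 of 23 alternative fits, among them those without untreated R1 replicate 1 (2.44 ± 0.63) or with a replicate block.

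Gibberellin-regulated protein 6-like was higher in untreated resistant leaves by 3.65 ± 0.74, its lowest resistant library at 0.269 CPM lying above its highest susceptible one at 0.249 CPM. Gibberellin 3-beta-dioxygenase 1 (TRINITY_DN5194_c0_g1_i4.p1) was higher by 2.11 ± 0.58, from 1.21 to 58.4 CPM with a median of 17.3 against 0.808 to 10.2 CPM with a median of 4.16. Its highest value was again untreated R1 replicate 1, without which the difference was 1.77 ± 0.57 and was not called. Lipoxygenase TRINITY_DN561_c0_g1_i1.p1 was lower in resistant leaves, 1.19 to 5.20 CPM with a median of 3.31 against 5.59 to 10.4 CPM with a median of 7.38, a log2 difference of −1.35 ± 0.28. After the spray that lipoxygenase differed by −0.96 ± 0.27, which was not called.

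Lists of features for epidermis and cuticle and for dividing cells, found by name, also held features called between the untreated classes. A list of 13 epidermis and cuticle features, lipid-transfer proteins and 3-ketoacyl-CoA synthases, held 0.00392 to 0.0118% of the counts in untreated resistant and 0.00254 to 0.00423% in untreated susceptible libraries. The highest value was untreated R1 replicate 1, and the next highest untreated resistant library held 0.0078%. Of the 13 features 7 were called higher in untreated resistant leaves and none lower, beside 2.76% and 1.36% of all features. In this list 11 averaged over 1 CPM and none was at 0 throughout. Like the members, the features of this list and the next carried a description only because the authors had listed them as changed. Their counts are therefore a description, and nothing is read from them. A list of 31 features found by the words histone H, cyclin or kinesin, for dividing cells, held 0.0141 to 0.0277% against 0.0133 to 0.0149%. Its highest library was again untreated R1 replicate 1, and the next untreated resistant one held 0.0175%. Of its 27 tested features 8 were called higher in untreated resistant leaves and none lower. The words also matched cyclin-T1 features and a cyclin-dependent kinase inhibitor, so the list is a loose marker of division. Both lists also moved with the spray. Beside their counts stand 13.5% of all features called higher and 11.8% lower in susceptible leaves, and 5.63% and 3.51% in resistant ones. In resistant leaves the epidermis and cuticle list, at 0.00365 to 0.00623% after the spray, had 4 features called lower and none higher, beside the lower gibberellin and jasmonate-induced protein values there. In susceptible leaves, at 0.00305 to 0.00704% after the spray, it had 3 called higher and 5 lower. The dividing-cell list ran from 0.0152 to 0.0239% in sprayed susceptible libraries, above every untreated susceptible one, with 10 features called higher and 4 lower, and from 0.0130 to 0.0193% in sprayed resistant ones, with 6 higher and 3 lower. The part of tissue make-up in the untreated differences and in the responses was not tested.

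**Figure D5:**
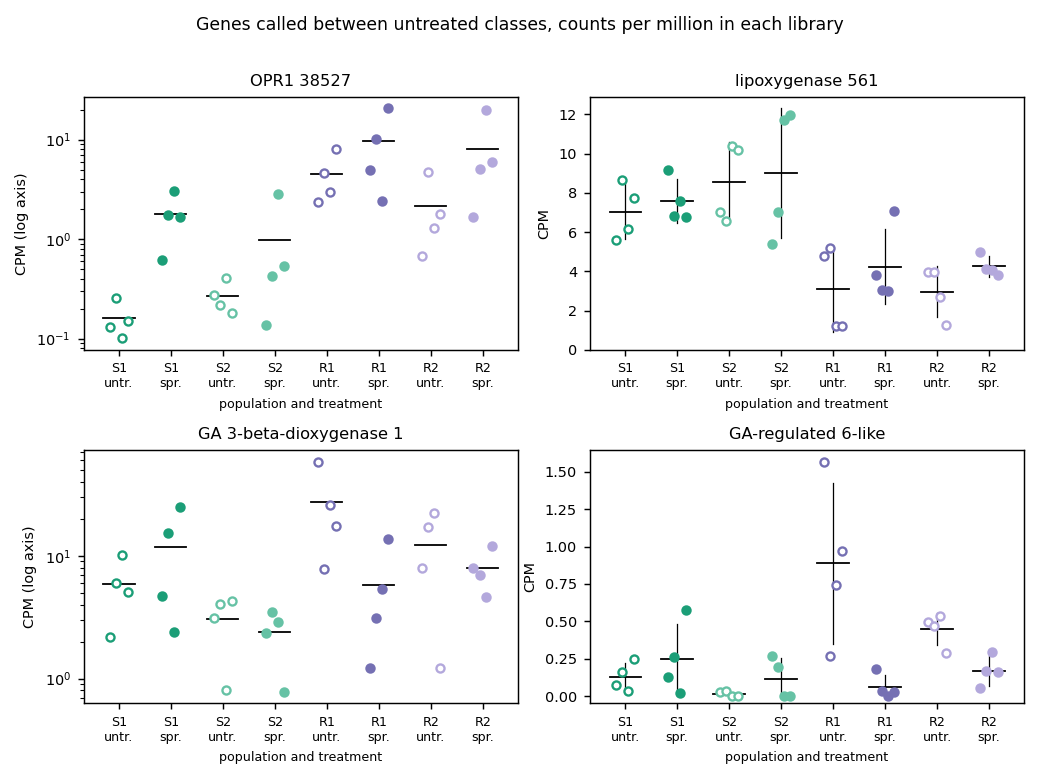
CPM of 4 members called between the untreated classes, in each of the 32 libraries (y axis; logarithmic for the oxophytodienoate reductase and for GA 3-beta-dioxygenase 1) by population and treatment (x axis; open circles untreated, filled circles sprayed; horizontal line mean; vertical line SD, n = 4, on the linear panels). For the reductase every untreated resistant library lies above every untreated susceptible one, and the lipoxygenase shows the reverse.

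Apart from PTI6-like, no member was called between populations of the same class in edgeR's test. Untreated S2 against S1 gave 0 called members and 3 at an unadjusted p below 0.05 in edgeR's quasi-likelihood test, beside 0.00799% of all features called, and R2 against R1 gave 0 and 3 beside 0.0399%. In sprayed leaves 6 members had an unadjusted p below 0.05 in each class. Sprayed S2 libraries lay wholly above sprayed S1 ones for 3 members and wholly below for 1, as 4.6% and 3.89% of all features did. Sprayed R2 libraries lay wholly above sprayed R1 ones for 1 member and below for 4, as 3.47% and 3.92% did. The difference between the responses of S2 and S1 called 0 members with 3 at that unadjusted level, beside 0.028% of all features, and that between R2 and R1 called 0 with 3, beside 0.00399%. DESeq2 called 0 members in both untreated comparisons and in both response differences. In sprayed leaves it called PTI6-like between R2 and R1, and PTI6-like and the furanone reductase between S2 and S1.

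The largest population difference that missed the test belonged to the jasmonate-induced protein-like feature, whose response was −3.88 ± 0.93 in R1 and −0.23 ± 0.82 in R2, a difference of 3.64 ± 1.22 (adjusted p = 0.715, edgeR). Without untreated R1 replicate 1, its highest library, the R1 response was −2.23 ± 0.80 and the difference 2.00 ± 1.06 (adjusted p = 0.861, edgeR). Gibberellin 3-beta-dioxygenase 1 was at −2.31 ± 0.84 in sprayed S2 against sprayed S1 (adjusted p = 0.191, edgeR). The furanone reductase was at 0.38 ± 0.11 in the same comparison (adjusted p = 0.0872, edgeR; 0.37 ± 0.11 with adjusted p = 0.0309 in DESeq2), with all 4 sprayed S2 libraries above the 4 sprayed S1 ones.

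Other features of the same pathways, found by words that the choice of members did not use, are subject to the same listing by the authors and are described without a test. Their counts stand beside the 13.5% of all features called higher and 11.8% lower in the susceptible class, and 5.63% and 3.51% in the resistant. Salicylate is a defence hormone that often works against jasmonate; all 8 tested features of its list were called higher in susceptible leaves and 3 in resistant ones. Of those 8 features 4 were phenylalanine ammonia-lyase, which also feeds phenylpropanoid synthesis in general, and they made 4 of the susceptible and 2 of the resistant calls. The rest were salicylic acid-binding protein 2 (TRINITY_DN31413_c1_g1_i2.p1), at 1.91 ± 0.27 and 0.90 ± 0.26, pathogenesis-related proteins 4 and 1, and a SUPPRESSOR OF NPR1-1 CONSTITUTIVE 4-like feature. In that order they averaged 2.45, 7.28, 0.54 and 0.74 CPM. The listed phenylalanine ammonia-lyase features averaged from 0.0583 to 38.8 CPM. All were found by name, which does not place each of them in salicylate signalling. Of 7 features of the other ethylene list, 5 were called higher and 1 lower in the susceptible class and 4 and 1 in the resistant, a feature named for the kinase CTR1 (TRINITY_DN36527_c0_g1_i9.p1) reaching 1.48 ± 0.38 and 1.63 ± 0.40. This list also held features found by the AP2 family name, which does not place each of them in ethylene signalling. All 4 cytokinin features, on 3 contigs, were response regulators; 3 were called lower in the susceptible class and 4 in the resistant, with one (TRINITY_DN1752_c0_g1_i26.p5) at −0.86 ± 0.16 and −0.56 ± 0.16.

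All 4 strigolactone and karrikin features, on 2 contigs, were called lower in the susceptible class and none in the resistant; for none of them was the difference between the class responses called. Of 25 features of the abscisic acid list, 12 were called higher and 9 lower in the susceptible class and 4 and 2 in the resistant. Most were protein phosphatases 2C or late embryogenesis abundant proteins found by name, which does not place each of them in the hormone's pathway. Among the pathway lists this one held the calls between populations: probable protein phosphatase 2C 5 (TRINITY_DN73_c0_g1_i1.p2) was at 0.48 ± 0.10 in sprayed S2 against S1 (adjusted p = 0.0221, edgeR), and probable protein phosphatase 2C 58 (TRINITY_DN15_c0_g1_i6.p1) at −0.57 ± 0.14 (adjusted p = 0.0406, edgeR). Of 7 features of the gibberellin list 4 were called higher and 1 lower in the susceptible class and 1 higher in the resistant. Most were scarecrow-like proteins, and that name alone does not place them in gibberellin signalling. Scarecrow-like protein 9 (TRINITY_DN4117_c0_g1_i9.p1), called in both classes, stood at 1.10 ± 0.09 and 1.02 ± 0.09. Of 5 jasmonate features 2 were called higher and 1 lower in the susceptible class, the lower one being a homolog of the receptor COI1 named coronatine-insensitive 2, at −0.33 ± 0.11, and 1 was called lower in the resistant. Of 3 brassinosteroid features 2 were called higher in the susceptible class, and 1 higher and 1 lower in the resistant.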

How the data were processed

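The authors deposited raw counts per feature for 32 libraries (a stranded Illumina kit with plant ribosomal RNA depletion, per the labels' protocols), with a table of their own comparisons holding log2 fold changes and adjusted p-values. The submitters' processing notes name R 3.6.1, DESeq2 1.24.0, FastQC 0.11.5 and STAR 2.5.2b, with no account of how each was used; how features were assembled and counted, with or without strand, is not given in the sources used here. Members and lists were chosen with earlier results of these data known, and pathway word lists were narrowed to whole words after false matches in the descriptions were seen. Counts were filtered by edgeR's filterByExpr over the 8 groups (25036 of 39590 features), scaled by TMM and fitted with edgeR 4.0.16 (robust quasi-likelihood, 1 mean per group, 24 residual degrees of freedom, common biological coefficient of variation 0.389) in R 4.3.3; p-values were adjusted over all tested features by Benjamini-Hochberg. Class contrasts average both populations. The script was tested on simulated data. Genes named were the 2 most raised and lowered per hormone and class above 1 CPM, up to 5 called per population contrast, all members of hormones with 8 or fewer, and all lipoxygenase, reductase, allene oxide, jasmonate and TIFY members; other members are given to complete their group and were chosen after their values were seen. Labels do not say whether replicates were grown separately, so p-values measure the spread between these samples. No sequence table was used here.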

Additional observations from a re-analysis of the deposited data

Results flagged for a closer look

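In 28 members and 4 class-by-treatment groups of 8 libraries each, 112 groups, 14 had a library apart from the rest, that is, a gap to its neighbour above Dixon's critical share of the whole range; a share near 1 in 20 would be flagged by chance. Untreated R1 replicate 1 was apart for the jasmonate-induced protein-like feature at 21.7 CPM (next 4.41) and for gibberellin 3-beta-dioxygenase 1 at 58.4 CPM (next 25.9). Among jasmonate members, untreated R1 replicate 2 was apart for TIFY 10A at 1.54 CPM, sprayed R2 replicate 1 for TIFY 9-like at 0.408 CPM and sprayed S2 replicate 4 for lipoxygenase 2.3 at 29.6 CPM. The reductase TRINITY_DN51217_c0_g1_i1.p2 had untreated R1 replicate 3 at 1.01 CPM and untreated S1 replicate 2 at 0.160 CPM. Among ethylene members, untreated S1 replicate 1 was apart for ERFL2b at 3.07 CPM and sprayed S2 replicate 4 for CRF3-like at 2.67 CPM. Among auxin members, sprayed R1 replicate 4 was apart for the SAUR36 feature TRINITY_DN10724_c0_g1_i1.p1 at 0.632 CPM. The SAUR36 feature TRINITY_DN8096_c1_g1_i1.p1 had untreated R2 replicate 4 at 1.55 CPM and untreated S1 replicate 3 at 3.39 CPM. Untreated R2 replicate 4 was also apart for ARF16 at 1.92 CPM. Sprayed S1 replicate 4 was apart for gibberellin-regulated protein 6-like at 0.575 CPM.

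The response of resistant plants differed from that of susceptible plants by −4.35 on the log2 scale for gibberellin-regulated protein 6-like and by 0.47 for the furanone reductase. Both were called, but the class contrasts chose these features, so the calls are a description.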

How the results depend on the processing

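No alternative fit turned the sign of a called member. Other scalings (RLE factors, or TMM with the 10 most abundant features set aside) left every count of called members within 1.5 times its value. PTI6-like, called in sprayed S2 against S1 and in sprayed R2 against R1 with 1 member each, was called in 0 when only the libraries compared were fitted; DESeq2 called 2 members in sprayed S2 against S1, PTI6-like and the furanone reductase. Between untreated classes the 6 calls became 3 with no filter on low counts, 3 with only the libraries compared and 3 with a replicate block. The 2 calls between class responses became 1 with no filter, 1 with a filter of 1 CPM in 4 libraries, 4 with DESeq2, 0 with a replicate block and 1 with counts summed per Trinity gene. The causes were not tested. Replicate numbers did not pair the libraries (correlations of −0.088 to 0.088 between same-numbered libraries); the replicate block called 38 members in the susceptible and 19 in the resistant response.

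Leaving out 1 library at a time, the count ran from 0 to 1 in sprayed S2 against S1 and sprayed R2 against R1, from 3 to 7 between untreated classes, from 4 to 8 between sprayed classes and from 0 to 2 between class responses. It was 3 between untreated classes without S1 replicate 1 or 4, S2 replicate 1 or 3, R1 replicate 1 or R2 replicate 3. At least 1 such fit lost the call of 11 of the 41 members called in the susceptible response, 7 of the 22 in the resistant response, 3 of the 6 between untreated and 2 of the 6 between sprayed classes. The count ran from 34 to 38 in the susceptible and from 17 to 20 in the resistant response. Features with under 30 counts in a class, such as TIFY 9-like before the spray, limit the precision of their fold changes.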
